A study of Mus musculus with 3 samples.

Results

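Cish, Socs1, Socs2 and Socs3 encode feedback inhibitors of cytokine receptors, and Pim1 and Bcl3 are further genes that cytokine signaling is known to induce. The 6 genes were taken by symbol, out of 33696 genes in the count tables, and each symbol matched 1 gene. They were followed across lymphoid and myeloid cells from KP1 tumors, a mouse model of small-cell lung cancer (SCLC), profiled by droplet single-cell RNA sequencing with the 10x 3' chemistry. The study built the IL-10/2-Trikine, a fusion cytokine that links mono-IL-10 to an IL-2 variant. By the study's design, that variant does not signal itself and cannot bind the common gamma chain. It is meant to recruit the IL-2 receptor chain IL2Rβ to the IL-10 receptor. The comparison was with mono-IL-10, a single-chain IL-10 that the sample labels call Supermono-10.

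All mice were labelled wild-type and were, by the methods of the study, B6129SF1/J animals. They carried 500000 subcutaneous KP1 cells, were given 3 µg of functional cytokine per dose on alternate days between days 7 and 19, and tumors were taken on day 19. The 3 groups were mono-IL-10, the IL-10/2-Trikine, and a combination in which the IL-10/2-Trikine was joined by an antibody to PD-1, 200 µg at each dose. The protocol text can also be read as giving that antibody to every group, whereas sample titles and treatments list it for the combination only, and these were followed here. Each group was 1 library, the number of mice behind a library is not stated, and no library from untreated mice was analysed here. No difference below can therefore be set against variation between mice, no test was possible, and every interval covers counting error only.

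In T cells and NK cells, IL-2 binds a receptor built from IL2Rα, IL2Rβ and the common gamma chain and signals mainly through STAT5, whereas IL-10 signals mainly through STAT3. Activated STATs enter the nucleus and switch on genes for SOCS proteins, which bind receptors or JAK kinases, block them or mark them for degradation, and so close a feedback loop. Cish and Socs2 are classical STAT5 targets, Socs3 is a classical STAT3 target that restrains gp130 receptors, and Socs1 is strongly induced by interferon-γ and blocks JAK kinases. Pim1 is a serine/threonine kinase that supports survival and growth, and Bcl3 is an atypical IκB protein that works with NF-κB p50 and p52 in the nucleus.

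Promoter windows of 5 of the 6 genes were found in RefSeq (GRCm38.p6). The stretches that hold a match to a STAT or interferon element are shown because they are the letters through which such factors are known to act on this gene family. Capitals mark matches on either strand to TTCNNNGAA, the gamma-activated (GAS) element that STAT dimers bind, or to GAAANNGAAA, the core of the interferon-stimulated response element (ISRE). Each is written 5′ to 3′ on the strand of its gene.

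Cish, chr9:107296589-107296688, plus strand: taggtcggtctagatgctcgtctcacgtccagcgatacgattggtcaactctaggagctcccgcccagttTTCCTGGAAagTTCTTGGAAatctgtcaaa
Socs3, chr11:117969467-117969566, minus strand: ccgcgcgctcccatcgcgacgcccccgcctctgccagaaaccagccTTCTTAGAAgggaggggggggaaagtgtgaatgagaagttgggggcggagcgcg
Socs1, chr16:10785562-10785661, minus strand: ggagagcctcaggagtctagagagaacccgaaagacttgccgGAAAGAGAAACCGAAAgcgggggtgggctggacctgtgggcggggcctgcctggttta

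The Cish window held 2 GAS matches, which began at bases 1 and 12 after the annotated gene start. At least 2 such matches occurred in 0.457% of 32851 promoter windows of the same 300 bases, and at least 1 in 8.30%. The Socs3 window held 1 GAS match, 154 bases before the start. Socs1 had 2 ISRE matches that share 4 bases, 83 and 77 bases before the start, and 3.44% of windows held at least 1. Windows of Pim1 (chromosome 17, 2 windows) and Bcl3 (chromosome 7) held neither string. These matches describe the letters only, and binding was not measured.

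The libraries held 158570946 to 197176873 unique molecular identifiers (UMIs) in total, and 22235, 22707 and 26967 cells passed the filters, at median depths of 4273 to 5562 UMIs. The labels call the material T cells, but the sort took CD45+ cells, and clusters with markers of myeloid cells, B cells and KP1 tumor cells were present. Clusters were named from marker genes, "-like" marks such a name, and the 6 genes took no part in the clustering. T cell-like cells numbered 7456, 9144 and 10598 in the order mono-IL-10, IL-10/2-Trikine and combination, NK cell-like cells 779, 1137 and 1769, and monocyte/macrophage-like cells 6049, 3730 and 6777. A further pair of clusters, led by Klra6, Klra5 and Trdc, carried NK receptors with Cd3e UMIs in most cells and was kept apart as Cd3-rich NK receptor cells (538, 3664 and 1970 cells). Unnamed clusters held 16.6% of all cells. Libraries shared 137 to 180 cell barcodes pairwise, at most 0.793% of a library.

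A level, in CPM, is the sum of a gene's UMIs over a class in a library per 1000000 UMIs of that class, with an exact Poisson 95% CI. The level in near-empty droplets, which hold 2 to 100 UMIs, measures the free RNA of a library. Levels at or below it are pointed out for many values, and a level without a remark is not thereby above it. Levels at or below free RNA do not show that a class lacks the gene, since the part of free RNA in a cell was not measured.

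Each gene had its own order of cell classes. Cish was highest in ILC2-like cells, with 264 CPM (95% CI, 195 to 351) in mono-IL-10, 264 (214 to 322) in the IL-10/2-Trikine and 380 (261 to 533) in the combination, from 35, 91 and 16 cells. T cell-like cells came next at 53.2, 69.8 and 80.4 CPM, and the ranges of both classes did not overlap. NK cell-like cells followed at 43.3, 55.3 and 65.0 CPM and overlapped T cell-like cells. At the other end, monocyte/macrophage-like cells held 5.75 to 18.4 CPM and KP1 tumor cell-like cells 5.05 to 11.4 CPM. Near-empty droplets held 21.4, 49.1 and 35.5 CPM of Cish, so macrophages and tumor cells lay below free RNA in every library.

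Socs2 shared the top position of ILC2-like cells, at 110, 129 and 115 CPM. Plasmacytoid DC-like cells held 18.6, 67.8 and 71.0 CPM and KP1 tumor cell-like cells 50.3, 79.0 and 61.3 CPM, ranges that overlapped. T cell-like cells held 8.69, 44.4 and 38.5 CPM, and NK cell-like cells were lowest at 3.28, 4.44 and 5.05 CPM. The free-RNA level of Socs2 was 11.3, 34.1 and 21.6 CPM, which T cell-like cells exceeded in both IL-10/2-Trikine libraries and not in mono-IL-10. NK cell-like cells lay below it in every library.

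Socs3 was highest in myeloid cells. Monocyte/macrophage-like cells held 759, 648 and 690 CPM, above neutrophil-like cells at 401, 425 and 276 CPM without overlap. Plasmacytoid DC-like cells came next at 177 to 227 CPM, and T cell-like cells were lowest by their median, at 59.5 to 88.4 CPM. Free RNA held 299, 151 and 219 CPM of Socs3, so only monocyte/macrophage-like and neutrophil-like cells were above it in all 3 libraries.

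Pim1 was highest in neutrophil-like cells, at 1705, 1653 and 1968 CPM, then in ILC2-like cells at 1361, 1391 and 1174 CPM. NK cell-like cells followed at 1107, 624 and 842 CPM. Bcl3 led in NK cell-like cells at 149, 128 and 208 CPM, and their range overlapped that of neutrophil-like cells (99.8 to 159 CPM), the next class, but not that of monocyte/macrophage-like cells (95.7 to 122 CPM). Socs1 was placed in a similarly flat order, and the highest median was that of monocyte/macrophage-like cells, whose 60.7 to 251 CPM spanned most other classes. KP1 tumor cell-like cells were lowest for Socs1 (13.1 to 33.6 CPM), Pim1 (137 to 184 CPM) and Bcl3 (10.9 to 20.5 CPM). All of these tumor cell values lay below free RNA, which held 52.9 to 103, 375 to 468 and 69.6 to 96.5 CPM of these genes.

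**Figure D1:**
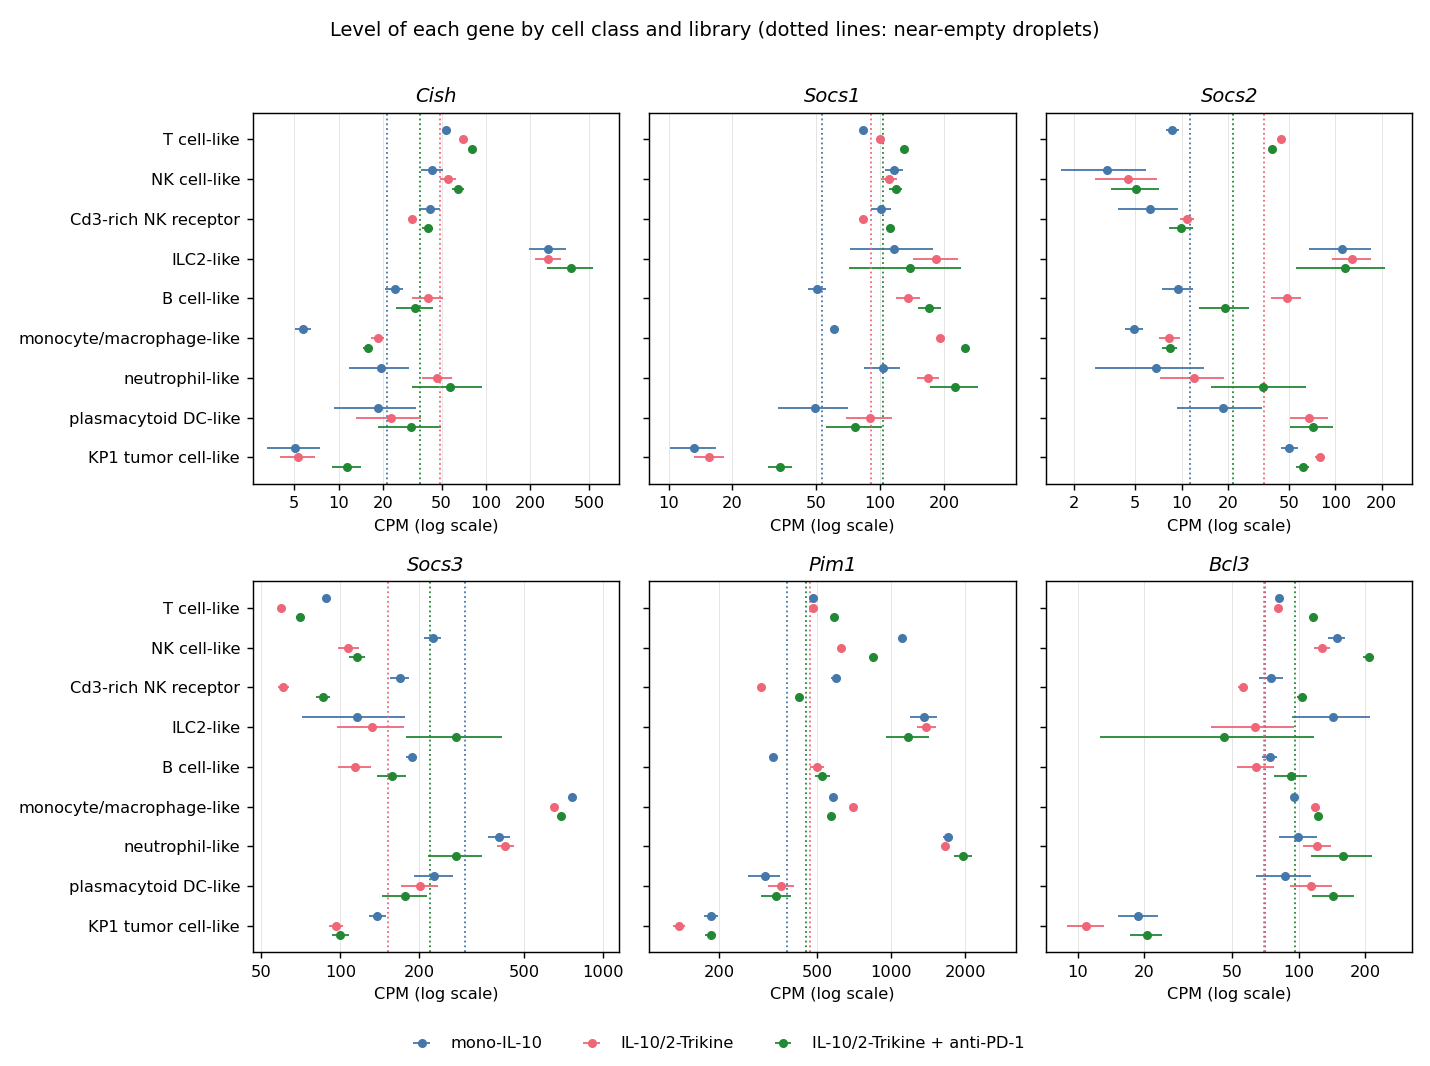
CPM (log axis) of each gene by cell class, with 1 point per library and bars for the exact Poisson 95% CI, which cover counting error only. Dotted vertical lines give the level in near-empty droplets of the same library. Cish and Socs2 peak in ILC2-like cells, Socs3 in monocyte/macrophage-like cells and Pim1 in neutrophil-like cells, and T cell-like Socs2 sits at 8.69 CPM in mono-IL-10 against 44.4 and 38.5 CPM in the other libraries.

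The first question was what differs with the IL-10/2-Trikine, designed to recruit IL2Rβ to the IL-10 receptor, from mono-IL-10. It was taken from the IL-10/2-Trikine library divided by that of mono-IL-10. A gene was called when its CPM differed at least 1.5-fold and the pair of libraries held at least 50 UMIs. In T cell-like cells 1 of the 6 genes, Socs2, was called higher, beside 8.56% of 13532 genes tested, and 0 were called lower, beside 18.4%. All 6 were tested. Over all genes tested the median log2 ratio stood at -0.15, and over the 6 genes at 0.13. Set against the median gene, the log2 ratios of Socs2, Cish, Socs1 and Socs3 were 2.50, 0.54, 0.41 and -0.42.

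Socs2, which restrains growth hormone and STAT5-type receptors, was at 8.69 CPM (7.86 to 9.59) in the mono-IL-10 library, 44.4 CPM (42.9 to 45.8) after the IL-10/2-Trikine and 38.5 CPM (37.1 to 39.9) after the combination. Both IL-10/2-Trikine libraries stood well above mono-IL-10. The ratio was 5.10 (4.60 to 5.68), with the mono-IL-10 level below the 11.3 CPM of free RNA in its library. Across the alternative settings its log2 ratio ran from 1.92, with cells gated on markers one by one, to 2.89, in cells without a proliferation UMI. The rise was not particular to T cell-like cells. B cell-like cells gave 5.09 (3.69 to 7.04), plasmacytoid DC-like cells 3.64 (1.87 to 7.74) and ILC2-like cells 1.17 (0.682 to 2.09). Free RNA also held more Socs2 in the IL-10/2-Trikine library, at 34.1 against 11.3 CPM, and its part in these values was not tested.

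After thinning every cell to 1000 UMIs, Socs2 was detected in 0.558% (0.399 to 0.759) of 7169 T cell-like cells under mono-IL-10 and in 4.30% (3.89 to 4.74) of 9026 under the IL-10/2-Trikine, and 287 and 118 shallower cells were left out. Without thinning 3.57% and 19.4% of cells had a UMI, where the median cell held 4186.5 and 5449.5 UMIs. In NK cell-like cells the thinned shares were 0.515% (0.140 to 1.31) and 0.354% (0.0964 to 0.903), and unthinned shares 1.28% and 1.58% at medians of 3852 and 3379 UMIs. The thinned NK cell-like shares rest on 4 cells with a UMI in each library.

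Within T cell-like cells the Socs2 level was split by CD4, Foxp3 and CD8 gates. CD4 cells without a Foxp3 UMI held 12.6, 65.4 and 53.0 CPM in the order mono-IL-10, IL-10/2-Trikine and combination, a ratio of 5.18 (4.25 to 6.36) for the first comparison, and the mono-IL-10 value lay within the interval of free RNA (9.12 to 13.8 CPM). Cells with a Foxp3 UMI, the gate for regulatory T cells, held 18.6, 90.8 and 62.4 CPM, a ratio of 4.88 (3.42 to 7.21). The CD8 gate was lower throughout, at 4.28, 12.5 and 9.69 CPM with a ratio of 2.92 (2.35 to 3.65). It stayed below the free-RNA level of its library in all 3, and the part of free RNA in its values was not tested.

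In 2 T cell-like clusters Socs2 was above free RNA in all 3 libraries. The cluster led by Tnfsf8, Cd4 and Tnfsf11 held 18.3, 110.3 and 69.2 CPM of Socs2, a ratio of 6.02 (4.98 to 7.34). The Foxp3-led cluster, the other of these, held 21.0, 68.7 and 47.7 CPM. The proliferating cluster led by Ccl1, Scin and Tnfsf11 held 8.09, 46.7 and 36.0 CPM, below free RNA with mono-IL-10 alone. Both CD8-led clusters and the naive-marker cluster, at 3.33, 4.19 and 8.05 CPM, were below free RNA in every library. The Ccl1-led cluster made up 9.22%, 36.7% and 26.3% of the UMIs of the class. With each cluster given the same weight in both libraries, the Socs2 log2 ratio was 2.07 against 2.35.

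Il2ra encodes IL2Rα, a chain of the high-affinity IL-2 receptor, and is itself a STAT5 target. It was at 85.8, 236 and 210 CPM in T cell-like cells. Socs2 was higher in cells with an Il2ra UMI than in cells without, at 14.6 against 5.99 CPM with mono-IL-10, a ratio of 2.43 (1.99 to 2.98), and at 49.3 against 32.6 CPM in the IL-10/2-Trikine library, which gives 1.51 (1.40 to 1.64). The level without an Il2ra UMI was below free RNA in both of these libraries. In the combination Socs2 was at 45.6 against 28.0 CPM, a ratio of 1.63 (1.504 to 1.77). Cells with an Il2ra UMI were deeper, with median depths of 9929 to 11701 UMIs against 3450.5 to 3934.5 UMIs. In the CD4 gate the contrast was 23.1 against 9.45 CPM with mono-IL-10 but 64.5 against 68.4 CPM in the IL-10/2-Trikine library, which gives 0.942 (0.831 to 1.07), and 56.0 against 48.1 CPM in the combination, which gives 1.16 (1.04 to 1.30). Between libraries the ratio was 7.24 (5.51 to 9.66) in CD4 cells without an Il2ra UMI, whose 9.45 CPM lay below free RNA, and 2.79 (2.07 to 3.83) in those with one.

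**Figure D2:**
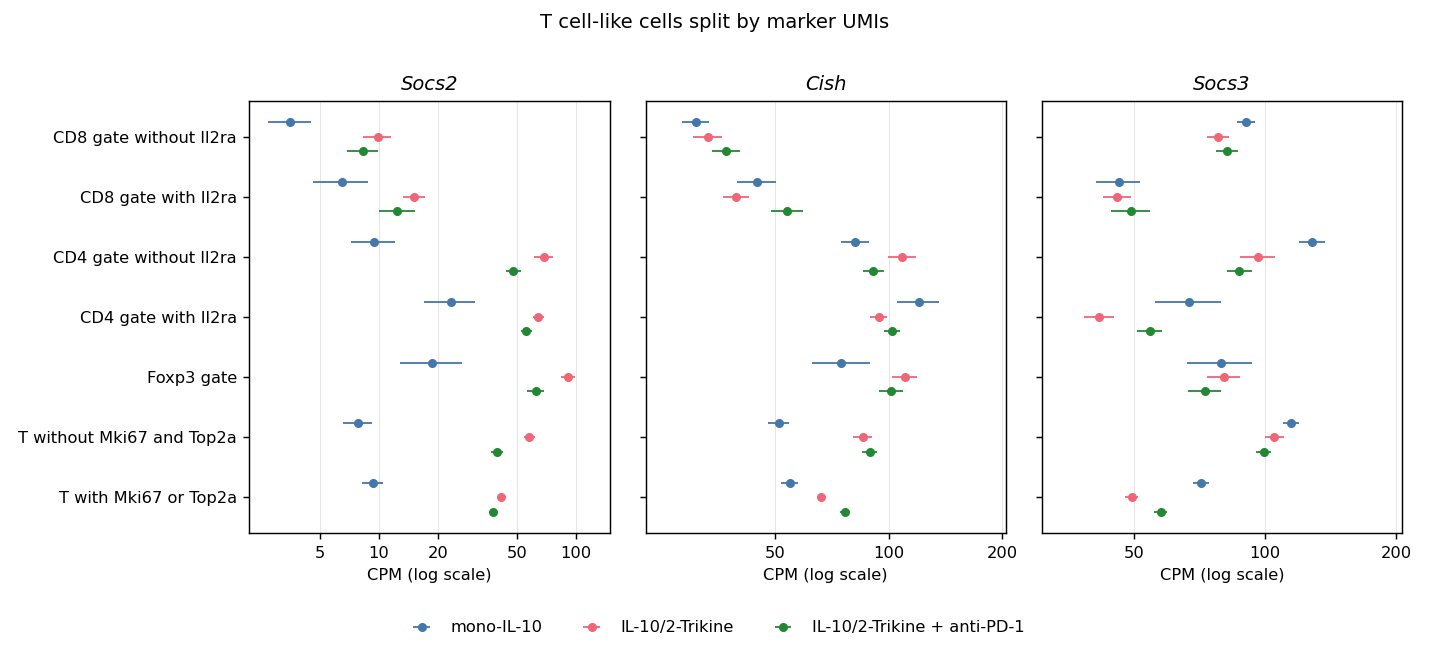
CPM (log axis) of Socs2, Cish and Socs3 in gates of T cell-like cells by Cd8, Cd4, Foxp3, Il2ra and proliferation UMIs, with 1 point per library and bars for the exact Poisson 95% CI (counting error only). Socs2 is at 90.8 CPM with the IL-10/2-Trikine against 18.6 CPM with mono-IL-10 in Foxp3 cells, whereas all CD8 values of Socs2 lie below free RNA.

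Cish, which restrains IL-2 and T cell receptor signaling, differed less. Its levels of 53.2, 69.8 and 80.4 CPM gave a ratio of 1.31 (1.25 to 1.38) for the first comparison. In the CD4 gate it was at 90.4, 97.7 and 97.9 CPM and in the CD8 gate at 34.3, 36.4 and 42.9 CPM, where 36.4 CPM is below the 49.1 CPM of free RNA in the IL-10/2-Trikine library. Neither gate reached 1.5-fold in the first comparison, with ratios of 1.08 (0.994 to 1.18) and 1.06 (0.969 to 1.16). The Foxp3 gate gave 1.47 (1.22 to 1.79). CD4 cells with an Il2ra UMI went the other way at 0.785 (0.684 to 0.903), and those without gave 1.33 (1.18 to 1.51). Without the naive-marker cluster the ratio over T cell-like cells was 1.21 (1.15 to 1.27). In cells without Mki67 or Top2a UMIs Cish was at 51.1, 85.3 and 89.1 CPM, a ratio of 1.67 (1.53 to 1.82), past the fold used for calls.

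Socs1 was at 82.7, 99.3 and 129.8 CPM in the same cells, with a ratio of 1.20 (1.16 to 1.25). Socs3 was at 88.4, 59.5 and 69.8 CPM, a ratio of 0.673 (0.645 to 0.702), just short of 1.5-fold. All 3 Socs3 values were below free RNA, which was itself highest with mono-IL-10. In the CD4 gate Socs3 was at 114, 54.6 and 66.9 CPM, a ratio of 0.479 (0.439 to 0.522), whereas in cells without Mki67 or Top2a UMIs the ratio was 0.916 (0.857 to 0.978). The Foxp3 gate gave 1.02 (0.840 to 1.24), and the naive-marker cluster went the other way at 2.26 (1.80 to 2.82). Mki67, a marker of proliferation, was at 336, 563 and 388 CPM in T cell-like cells. With clusters weighted equally the Socs3 log2 ratio was -0.12 against -0.57.

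Pim1 held 481, 479 and 587 CPM in T cell-like cells and Bcl3 81.9, 80.5 and 115.8 CPM. Their ratios for the first comparison were 0.996 (0.980 to 1.01) and 0.983 (0.944 to 1.02), and both intervals include 1. Subsets lay on either side of 1. Cells without Mki67 or Top2a UMIs gave 1.25 (1.21 to 1.29) for Pim1 and 1.29 (1.20 to 1.39) for Bcl3, and the naive-marker cluster 1.71 and 1.64, whereas the CD4 gate gave 0.851 (0.821 to 0.882) and 0.886 (0.810 to 0.969). In the naive-marker cluster Pim1 lay below free RNA in both libraries, as did Bcl3 with mono-IL-10. Over all T cell-like cells, Pim1 with the IL-10/2-Trikine (479 CPM) lay within the interval of free RNA (446 to 490 CPM).

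NK cell-like cells gave a different set. Of the 6 genes, 5 were tested, since Socs2 had only 31 UMIs. None was called higher, beside 3.86% of 8603 genes, and 2 were called lower, Socs3 and Pim1, beside 6.9%. Socs3 was at 225 CPM (209 to 241) under mono-IL-10, 107 CPM (97.9 to 117) under the IL-10/2-Trikine and 116 CPM (108 to 124) in the combination. The first comparison gave a ratio of 0.477 (0.425 to 0.536). Mono-IL-10 stood alone above both other libraries. Pim1 was at 1107 CPM (1072 to 1143), 624 CPM (601 to 647) and 842 CPM (820 to 865), a ratio of 0.563 (0.536 to 0.592).

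Some other measures were also lower with the fusion cytokine alone than with mono-IL-10. Socs3 lay below free RNA in each library, and free RNA was also higher with mono-IL-10. The part of free RNA in NK Socs3 was not tested. The 11 macrophage markers summed to 94.3, 31.5 and 92.1 CPM in NK cell-like cells, with 1, 3 and 1 of them at 0. Socs3 and Pim1 in the combination were at 116 and 842 CPM. The part of the macrophage markers in the result was not tested. Immediate-early and heat shock genes, which handling of tissue can induce, summed to 8036, 5247 and 5612 CPM, and 10 of 15 were called lower in the first comparison. In cells with no Fos, Fosb, Jun, Hspa1a or Hspa1b UMI the log2 ratio was -0.88 for Socs3 against -1.07 in all cells, and -0.92 for Pim1 against -0.83.

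Cish in NK cell-like cells was at 43.3, 55.3 and 65.0 CPM with a ratio of 1.28 (1.04 to 1.58). Across the alternative settings the log2 ratio ran from -0.30 to 0.56, so its sign changed. The 10 T cell markers, none at 0, summed to 843, 962 and 1114 CPM in NK cell-like cells, the same order as Cish. Their part in the result was not tested. Socs1 was at 116, 110.4 and 118 CPM with a ratio of 0.949 (0.829 to 1.09), and Bcl3 at 149, 128 and 208 CPM with 0.854 (0.756 to 0.965). In the Cd3-rich NK receptor cells Socs3 was at 169, 60.7 and 86.0 CPM, a ratio of 0.360 (0.328 to 0.396), and Pim1 at 594, 296 and 422 CPM, a ratio of 0.498 (0.475 to 0.523). Socs3 there lay below free RNA in every library, and the part of free RNA in it was not tested. Pim1 lay above free RNA with mono-IL-10 (375 CPM in near-empty droplets) and below it in both libraries with the IL-10/2-Trikine (468 and 449 CPM). A proliferating cluster, led by Klra6, Klra5 and Trgc4, supplied 33.5%, 74.2% and 49.3% of the UMIs of these cells. Within it the ratios were 0.538 for Socs3 and 0.677 for Pim1, the latter short of 1.5-fold, and cells without Mki67 or Top2a UMIs gave 0.483 and 0.559.

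In monocyte/macrophage-like cells 3 of 6 genes were called higher, Cish, Socs1 and Socs2, beside 6.26% of 12505 genes, and 0 lower, beside 6.03%. Socs1 was at 60.7 CPM (58.4 to 63.1) under mono-IL-10, 193 CPM (187 to 199) under the IL-10/2-Trikine and 251 CPM (246 to 256) in the combination. The ratio for the first comparison was 3.17 (3.02 to 3.34), and mono-IL-10 was the low library. After thinning to 1000 UMIs, Socs1 was detected in 4.80%, 13.8% and 14.3% of cells, against 1.09%, 1.26% and 3.19% of KP1 tumor cell-like cells. Before thinning it was found in 21.0%, 31.6% and 31.7%, where the median cell held 6925, 5347.5 and 5218 UMIs, against 4.61%, 8.62% and 12.7% in the tumor cells at 1358, 9922 and 3148 UMIs. Thinning left out 470, 306 and 1148 of the macrophages and 343, 203 and 250 of the tumor cells.

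The Socs1 difference was largest in the cells with monocyte genes. The cluster led by Chil3, Saa3 and Lyz2 held 110.1, 322 and 582 CPM, a ratio of 2.93 (2.75 to 3.11) for the first comparison. Cells led by Cxcl14, Slamf9 and Cd72, with the complement genes C1qa to C1qc, held 36.2, 47.8 and 70.9 CPM. These levels lay below the 52.9, 90.03 and 103 CPM of free RNA in each library, whose part in them was not tested. The monocyte-type cluster supplied 32.7%, 51.6% and 35.1% of the UMIs of the class, so its share was also largest in the IL-10/2-Trikine library, and with clusters weighted equally the log2 ratio was 1.28 against 1.67. Irf1, an interferon-γ-induced transcription factor, was at 566, 959 and 998 CPM in that cluster and at 197, 243 and 299 CPM in the C1q cluster. A list of 15 interferon-γ-induced genes that includes Irf1 summed to 4775, 5005 and 7028 CPM in the Chil3-led cluster. Its sum there thus differed little in the first comparison. Their relation to Socs1 was not tested.

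**Figure D3:**
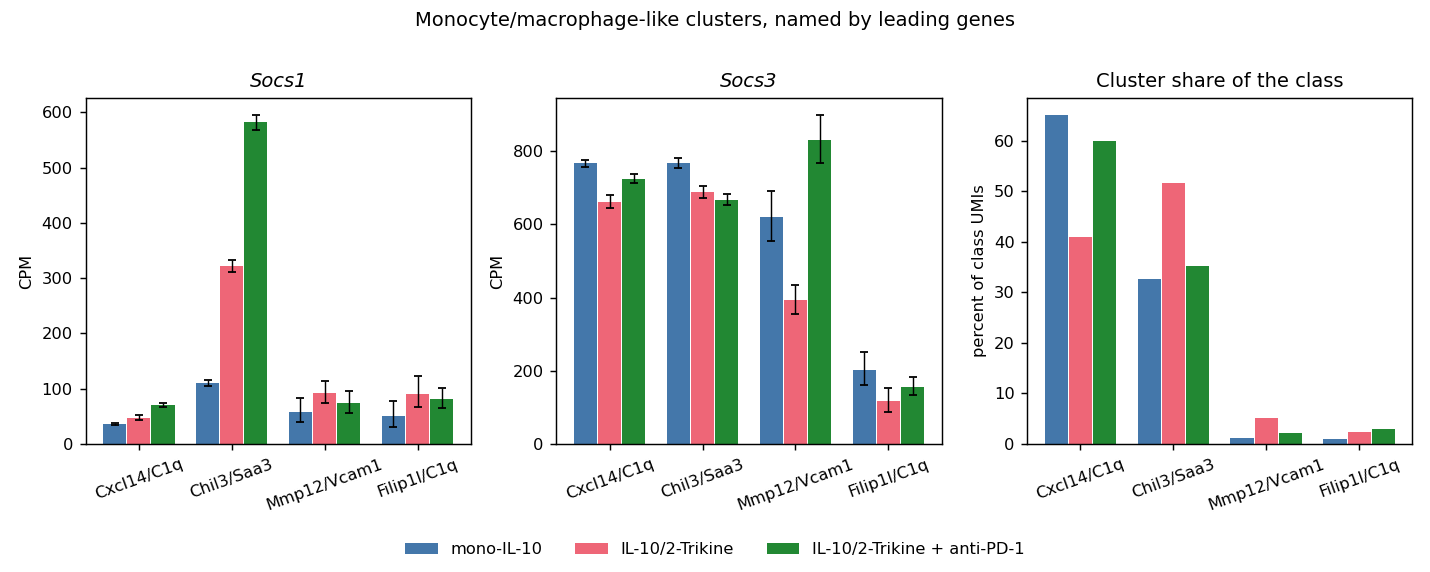
Bars give the CPM of Socs1 and Socs3, with exact Poisson 95% CI as error bars (counting error only), and the percent of class UMIs in each monocyte/macrophage-like cluster, by library. Socs1 separates the libraries in the Chil3-led cluster, at 110.1, 322 and 582 CPM, and lies between 36.2 and 70.9 CPM, below free RNA, in the Cxcl14-led cluster, while Socs3 lies between 661 and 767 CPM in both.

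Cish in the class was at 5.75, 18.4 and 15.8 CPM, a ratio of 3.21 (2.72 to 3.79), and Socs2 at 4.92, 8.32 and 8.37 CPM, a ratio of 1.69 (1.37 to 2.08). Both genes lay below free RNA in all 3 libraries, and the part of free RNA in their levels was not tested. All 10 T cell markers were detected in these cells and summed to 159, 331 and 229 CPM, an order shared with Cish, and their part in the result was not tested. Socs3, at 759, 648 and 690 CPM, had a ratio of 0.854 (0.836 to 0.871), and the small cluster led by Mmp12, Vcam1 and Mmp13 was further apart, at 621, 393 and 831 CPM. Pim1 was at 582, 701 and 570.4 CPM and Bcl3 at 95.7, 119 and 122 CPM, with ratios of 1.20 (1.18 to 1.23) and 1.24 (1.18 to 1.30).

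**Figure D4:**
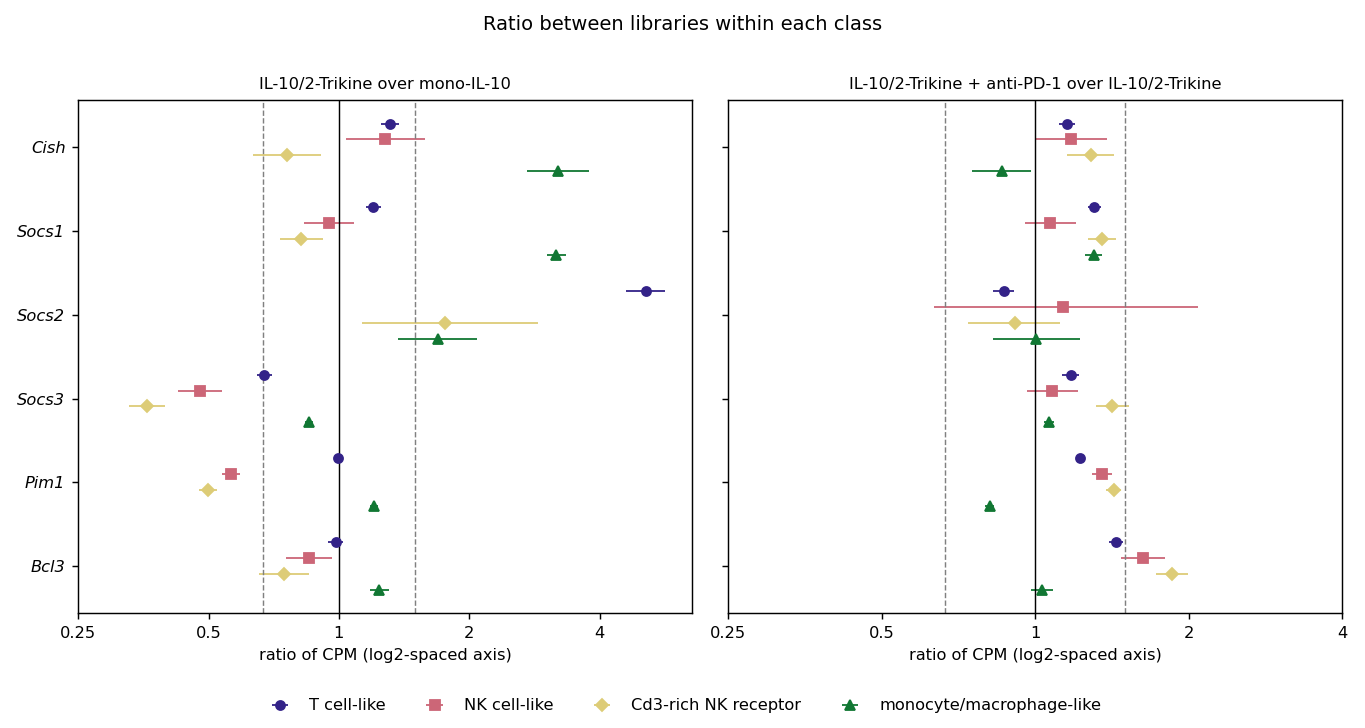
CPM ratios of the 6 genes (log axis) in 4 cell classes for both comparisons, with exact 95% intervals that cover counting error only, a solid line at 1 and dashed lines at 1.5-fold either way. T cell-like Socs2 is at 5.10 in the first comparison, over a mono-IL-10 level below free RNA. Monocyte/macrophage-like Socs1 is at 3.17, over a mono-IL-10 level of 60.7 CPM, little above the 52.9 CPM of free RNA. NK cell-like Bcl3 is at 1.63 in the second comparison.

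The second comparison divided the combination by the fusion cytokine alone, to ask what blocking PD-1 adds. It shares the IL-10/2-Trikine library with the first. In T cell-like cells 0 of 6 genes were called higher, beside 6.53% of 13778 genes, and 0 lower, beside 3.93%. Bcl3 came nearest, with 115.8 against 80.5 CPM and a ratio of 1.44 (1.39 to 1.49). Socs1 had a ratio of 1.31 (1.27 to 1.35), Pim1 1.22 (1.21 to 1.24), Socs3 1.17 (1.13 to 1.22) and Cish 1.15 (1.11 to 1.19). Socs2 alone was below 1, at 0.867 (0.826 to 0.911), and at 0.687 (0.605 to 0.780) in the Foxp3 gate.

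In NK cell-like cells all 6 genes were tested, 1 was called higher, Bcl3, beside 3.68% of 9164 genes, and 0 lower, beside 4.09%. Bcl3 was at 208 CPM (197 to 219) with the combination against 128 CPM (117 to 139), a ratio of 1.63 (1.47 to 1.80). Thinned shares were 18.6% and 12.0%. Of 10 NF-κB subunits and other IκB proteins, the partners and relatives of Bcl3, 5 were called higher and 0 lower. Nfkb2 was at 78.5 against 45.1 CPM, Nfkbiz at 510 against 312 CPM and Nfkb1 at 996 against 632 CPM. In the same cells the 11 macrophage markers summed to 92.1 against 31.5 CPM and the 10 T cell markers to 1114 against 962 CPM. Their part in the result was not tested. In Cd3-rich NK receptor cells Bcl3 was at 104 against 56.0 CPM, a ratio of 1.86 (1.73 to 1.99), with the lower level below the 69.6 CPM of free RNA in its library. The ratio was 1.45 (1.31 to 1.61) within their proliferating cluster, whose share also differed between these libraries, and 2.25 (1.98 to 2.56) in those without Mki67 or Top2a UMIs. Among NK cell-like cells the ratio was 1.35 (1.29 to 1.41) for Pim1, 1.18 for Cish, 1.07 for Socs1 and 1.08 for Socs3.

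In monocyte/macrophage-like cells 0 of 6 genes were called higher, beside 4.66% of 12369 genes, and 0 lower, beside 4.04%. Socs1 had a ratio of 1.30 (1.25 to 1.35) over the class. In the Chil3-led cluster it was 1.81 (1.74 to 1.88), while the C1q cluster lay below free RNA in both libraries. The make-up of the class also differed between the libraries. The 15 interferon-γ-induced genes summed to 5005 and 7028 CPM in the Chil3-led cluster, where Irf1 alone was at 959 and 998 CPM. Pim1 had a ratio of 0.814 (0.796 to 0.832) and Cish 0.859 (0.752 to 0.983). The ratios of Bcl3 (1.03), Socs2 (1.005) and Socs3 (1.06) were closer to 1.

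The other pathway genes are set against the shares over all genes, which in T cell-like cells were 8.56% higher and 18.4% lower in the first comparison. Of 13 other negative regulators of JAK-STAT signaling, 0 were called higher and 2 lower, a share near the background, Sh2b3 (5.29 to 3.13 CPM) and Socs5 (19.95 to 12.3 CPM). Of 11 survival and growth targets, Il2ra and Osm were called higher and 5 were called lower, led by Pim2 (28.0 to 11.5 CPM) and Myc (28.8 to 15.5 CPM). The 15 interferon-γ-induced genes had 0 called higher and 9 lower, with Gbp4 at 102 and 45.0 CPM, a direction opposite to that of Socs1, whose ratio was above 1. In the second comparison, where 6.53% of all genes were called higher and 3.93% lower, 8 of these 15 were called higher and 0 lower, led by Iigp1 (19.3 to 52.3 CPM). In mono-IL-10, the IL-10/2-Trikine and the combination, macrophage markers summed to 91.4, 34.3 and 69.9 CPM in T cell-like cells. Immediate-early and heat shock genes summed to 4480, 3905 and 4598.5 CPM. Their part in these values was not tested.

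In monocyte/macrophage-like cells, 2 of the 15 interferon-γ-induced genes were called higher in the first comparison, Irf1 (320 to 613 CPM) and Gbp5 (99.7 to 157 CPM), and 0 lower, beside 6.26% and 6.03% of all genes. Il2ra, from 1.96 to 11.5 CPM, was the single called gene of the 10 tested survival and growth targets. It was at 1.85 and 3.53 CPM in the Cxcl14-led cluster and at 1.81 and 4.15 CPM in the Chil3-led one, against 17.5 and 91.2 CPM in the cluster led by Filip1l, Cmss1 and Lars2 and 0 and 114 CPM in the small Mmp12-led cluster of 69 and 87 cells. The T cell markers given above moved with it, from 159 to 331 CPM, and their part was not tested. In NK cell-like cells 3 of the 10 tested targets of that kind were called lower, beside 6.9% of all genes, Myc (88.9 to 25.8 CPM), Pim3 (58.8 to 33.8 CPM) and Pim2 (131 to 81.7 CPM). Pim2 and Pim3 encode kinases related to Pim1. Nfkbiz (576 to 312 CPM) and Nfkbia (2324 to 1271 CPM) were called lower there as well.

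Over 22 sums of a class in a library, each of at least 100 cells, which leaves out ILC2-like cells and 2 sums of plasmacytoid DC-like cells, the genes most like each of the 6 were found among 6780 genes by Pearson's r of log2(CPM + 1). These points share libraries and cell classes, so r is a description. Bcl3 was closest to Nfkb1 (r = 0.97), Skil (0.97) and Nfkb2 (0.96), and Pim1 to Nfkbia (0.98), Arih2 (0.95) and Btg2 (0.94). Socs3 was closest to Itga5 (0.96), Hexa (0.95) and Bach1 (0.95), and Cish to Isy1 (0.93), Tes (0.92) and D16Ertd472e (0.92). Socs1 followed Cnppd1 (0.89), Gpr132 (0.89) and S100a6 (0.87), and Socs2 followed Hnrnpc (0.89), Prep (0.88) and Slc7a5 (0.87). Among the 6, Bcl3 and Socs1 were most alike (0.85), then Bcl3 and Pim1 (0.81).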

How the data were processed

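Per the labels, CD45+ cells sorted from KP1 tumors were sequenced as 3 libraries, and the authors deposited unfiltered UMI counts per gene and barcode, made with Cell Ranger 8.0.0 according to the submitters' processing notes. No normalization had been applied. Barcodes were kept from 200 genes upward unless mitochondrial UMIs exceeded 20%. Cells were clustered with scanpy 1.11.5 (2000 variable genes without the 6 genes, 30 components, Leiden resolution 1, 28 clusters). A cluster was named for the class with the most markers, at least 3, that had a mean 1.5-fold above the rest and UMIs in 10% of its cells, unless its top 10 genes held more markers of another class, or held none of its own while its cells had a median depth under 0.333 of their sample's. This rule was set after the clusters were seen, and named clusters could also hold markers of a second class. Of the clusters not named T cell-like, those with Cd3e UMIs in at least 50% of cells stayed unnamed or apart. Counts were summed per class and library and given as CPM with exact Poisson, ratios with exact conditional binomial and shares with Clopper-Pearson 95% intervals. Low-count genes were left out below 50 UMIs per pair. Doublets were not removed, since the automatic Scrublet threshold marked 0 cells in 2 libraries and 2782 cells (12.5%) in the mono-IL-10 library. Beyond the 6 genes, up to 3 called genes per pathway list and comparison, those with the largest ratio, were named. The 6 genes and lists were chosen with earlier results of these data known. Scripts were tested on simulated data. Alternatives covered scaling by edgeR 4.0.16 (TMM), filters, resolution, gates and doublet scores.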

Additional observations from a re-analysis of the deposited data

How the results depend on the processing

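With 1 library per group no library could be left out and no replicate error exists. No paired analysis was possible because each group has 1 library. Of the single values recomputed under 13 alternative settings, 343 stayed within their counting interval, 105 lay outside it and 0 of the called values changed sign. Some settings could not move a value, such as the 2-fold cut or a cell filter that left a class unchanged. Such values count among the 343. In monocyte/macrophage-like cells 3 genes were called higher in the first comparison, and 2 (Cish, Socs1) at 2-fold, under the marker gate, without the highest doublet scores and with clusters weighted equally, and 2 (Socs1, Pim1) without Fos, Fosb, Jun, Hspa1a or Hspa1b UMIs. At 2-fold, NK cell-like cells had 1 gene lower (Socs3) in the first comparison and 0 higher in the second. With cells gated on markers one by one, T cell-like cells had 1 lower (Socs3) in the first comparison and 1 higher (Bcl3) in the second, and NK cell-like cells had 1 higher (Socs2) in the first and 2 (Pim1, Bcl3) in the second. Keeping clusters with Cd3e UMIs in most cells under their other name gave the same NK counts of higher genes, 1 and 2. It gave 1 lower (Socs2) in monocyte/macrophage-like cells in the second comparison. In that setting NK cell-like Bcl3 was also lower past 1.5-fold in the first comparison (log2 -0.79). T cell-like cells had 2 higher (Cish, Socs2) without Mki67 or Top2a UMIs and 1 lower (Socs3) without the naive-marker cluster. With clusters weighted equally, a setting chosen after seeing the data, monocyte/macrophage-like cells had 1 higher (Socs1) in the second comparison. The cause of these changes was not tested. Automatic doublet removal was planned and not run, and cells in the top 10% of doublet scores were left out instead, also chosen after seeing the data. Depth limits NK cell-like Socs2, with 11 and 20 UMIs in the first comparison. Uncalled ratios near 1 changed sign between settings, among them T cell-like Pim1 (log2 -0.15 to 0.32) and Bcl3 (-0.11 to 0.37) in the first comparison. NK cell-like Cish did so as well, from -0.30 to 0.56.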

Other observations

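B cell-like cells, from 1560, 173 and 245 cells, held 50.4, 136 and 171 CPM of Socs1 with mono-IL-10, the IL-10/2-Trikine and the combination. Near-empty droplets held 52.9, 90.03 and 103 CPM, so the mono-IL-10 value was at the free-RNA level. A shallow cluster led by Ebf1, Bcar3 and Pax5 supplied 619, 0 and 61 of the B cell-like cells. Without it the ratio of the IL-10/2-Trikine library to mono-IL-10 was 2.58 (2.18 to 3.05) against 2.69 (2.28 to 3.17). The mono-IL-10 level of 52.6 CPM was still at the free-RNA level. Socs2 in B cell-like cells was at 9.47, 48.2 and 19.2 CPM. Its values with mono-IL-10 and the combination were at the free-RNA levels of 11.3 and 21.6 CPM.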
